A study of Mus musculus with 6 samples.

Results

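The genes described here are 45 mouse genes for copying DNA and for making its building blocks. They were found by gene symbol among the 55357 rows of the expression table, and all 45 were present, each once. They cover origin licensing, the MCM helicase and its activation, the polymerases, the sliding clamp, Okazaki fragment processing, deoxynucleotide synthesis, G1/S regulation and histone deposition on new DNA. The data were RNA-Seq of cultured mouse cortical astrocytes, which the study prepared from C57BL/6 embryos, in 6 cultures harvested at 48 hours. In the KE group, 3 cultures had been transfected with BRAF K499E, a constitutively active form of the kinase found in RASopathies. For its staining of such cultures, the paper describes a plasmid for FLAG-tagged BRAF K499E under the CMV promoter, given with a GFP plasmid. That promoter is not restricted to astrocytes, and the paper does not name the plasmids used for the RNA-Seq. In the NT group, 3 cultures were nontransfected and received no plasmid. No culture with an empty plasmid or with wild-type BRAF was analysed here, so the effect of BRAF KE and that of transfection cannot be told apart. The labels do not say whether the cultures of a group came from separate animals or preparations, and p-values therefore measure the spread between these cultures, which may be technical.

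A cell that is about to divide copies its genome once, in S phase. In G1, the origin recognition complex, CDC6 and CDT1 load the ring of MCM2 to MCM7 onto origins, and cyclin E with CDK2 then helps to switch the loaded rings on, with CDC45 and GINS as partners. DNA polymerases copy the opened strands on the PCNA clamp, and ribonucleotide reductase, thymidylate synthase and thymidine kinase provide deoxynucleotides. Many of these genes are known targets of E2F transcription factors, which RB proteins hold back in resting cells, and nondividing cells express them at low levels.

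All 45 genes were lower in the KE cultures, at an adjusted p-value under 0.05 in limma with Benjamini-Hochberg adjustment over the 15280 genes tested. Of all tested genes, 26.0% were lower by the same rule and 25.3% were higher. In 44 of the 45 genes every KE culture lay below every NT culture, against 29.9% of the tested genes, and the exception was Orc2. The log2 fold change, KE against NT, had a median of -0.80, which corresponds to an expression in KE of 57.6% of that in NT, while the median over all tested genes was 0.0018. The changes ran from -1.27 for Orc1 to -0.28 for Gins4. A fall of more than 0.5 on the log2 scale was seen in 38 of the 45 genes, and 13.8% of the tested genes were called lower with a change that large. Across all tested genes, 8.74% had a log2 fold change below the median of the 45.

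Values are DESeq2-normalized counts, that is, reads assigned to a gene after scaling each culture to a common level. The 45 genes were well measured, with no value under 140.2 normalized counts in any culture. Their summed share of all normalized counts was 0.245%, 0.244% and 0.237% in KE, against 0.412%, 0.410% and 0.432% in NT. Each KE culture had all 45 genes below the NT mean, with a median distance of -0.78, -0.78 and -0.83 on the log2 scale. As a check of the labels, Braf stood at 35025, 34933 and 40978 normalized counts in KE and 925, 811 and 946 in NT, a log2 fold change of 5.37. Total normalized counts were between 30500000 and 30900000 per culture, from an estimated 24500000 to 34100000 reads, with KE replicate 2 the least deep.

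**Figure D1:**
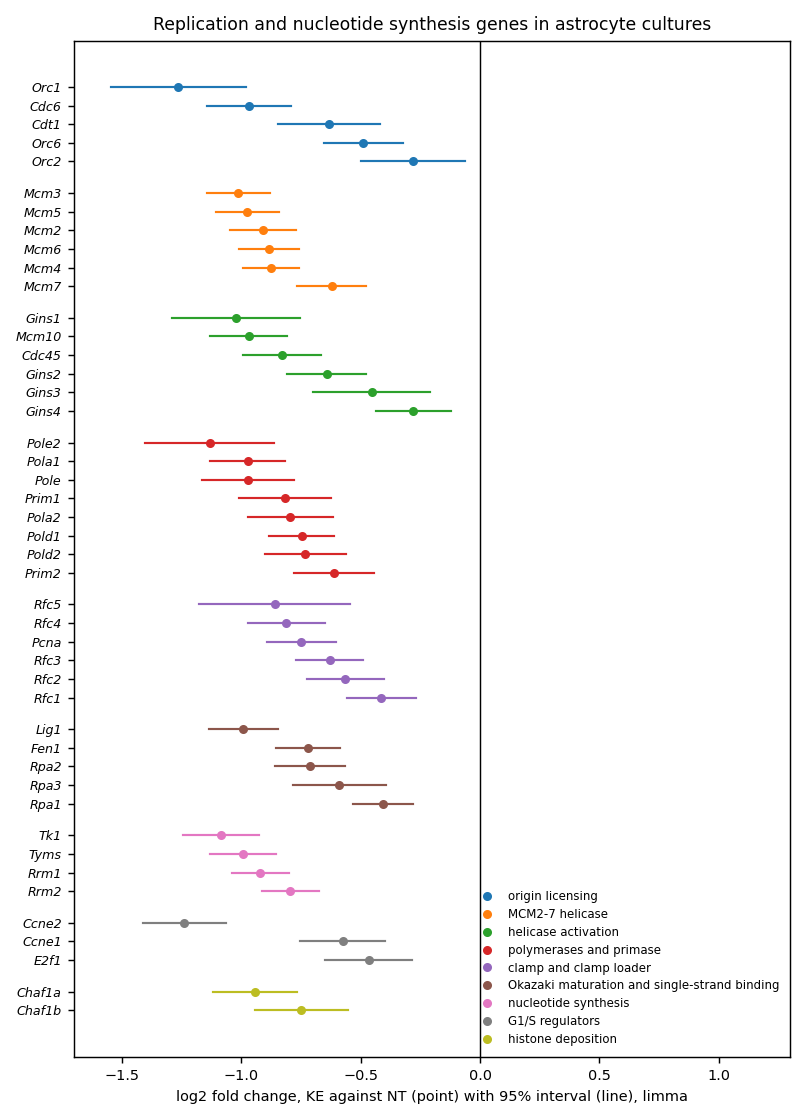
Log2 fold change of each of the 45 genes, KE against NT, with its 95% interval from limma (3 cultures per group), colored by role. Every point lies left of 0, from -1.27 (Orc1) to -0.28 (Gins4).

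The origin licensing genes (5 genes, median log2 fold change -0.63) held both the largest fall of the 45 and one of the smallest. Orc1, the subunit of the origin recognition complex whose level follows the cell cycle (chr4:108436540-108473245, plus strand, GRCm39), was measured at 182, 146 and 140.2 normalized counts in the KE group, against 399, 350.1 and 375 in the NT group. The groups were far apart, and Orc1 fell by 1.27 on the log2 scale (SE 0.13, n = 3 per group), to 41.7% of NT (limma adjusted p = 1.23e-05). Orc2, a subunit of the same complex (chr1:58497840-58544270, minus strand), read 2154, 1719.5 and 1933 in KE and 2396, 2061 and 2600.2 in NT. These groups overlapped, since KE replicate 1 exceeded NT replicate 2. Its log2 fold change was -0.28 (SE 0.10, limma adjusted p = 0.0338). The call for Orc2 was lost in limma without KE replicate 2 (log2 fold change -0.20, adjusted p = 0.127), KE replicate 3 (-0.28, 0.0748), NT replicate 1 (-0.26, 0.0889) or NT replicate 3 (-0.21, 0.123). Cdc6, an ATPase that helps to load the MCM ring (chr11:98798507-98814766, plus strand), was at 615, 549.5 and 613 in KE against 1084, 1206 and 1186 in NT. No KE culture came near the NT range, and the log2 fold change was -0.97 (SE 0.080, limma adjusted p = 2.5e-06). Cdt1, the MCM loading partner that geminin inhibits, changed by -0.63, and Orc6, the smallest subunit of the complex, by -0.49.

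All 6 genes of the MCM2-7 helicase, the ring that unwinds DNA at the fork, fell (median -0.90). Mcm7 (chr5:138162844-138170684, minus strand), the subunit with the highest level per kb of transcript, had 4622, 4287 and 4356 normalized counts in KE and 6255, 6919.8 and 7262 in NT. Its groups were separate, and the log2 fold change of -0.62 (SE 0.065, limma adjusted p = 1.66e-05) was the smallest in size among the 6 subunits. Mcm3 (chr1:20870791-20890536, minus strand) read 2832, 2889 and 2794 in KE and 5377, 5722 and 6109 in NT, and Mcm5 (chr8:75836140-75856231, plus strand) read 2512, 2778 and 2469.9 in KE and 5028, 5121 and 5096 in NT. No KE culture came near the NT range for either gene, and the KE means were 49.5% and 50.9% of NT. The log2 fold changes were -1.01 for Mcm3 (SE 0.060, limma adjusted p = 2.04e-07) and -0.98 for Mcm5 (SE 0.060, limma adjusted p = 2.62e-07). Mcm2, Mcm4 and Mcm6 changed by -0.91, -0.88 and -0.89. The ratio of Mcm5 to Mcm7 normalized counts within a culture, not divided by transcript length, was 0.543, 0.648 and 0.567 in KE and 0.804, 0.74 and 0.702 in NT, with no overlap between groups.

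The helicase activation genes (6 genes, median -0.74) ranged from -1.02 to -0.28. Mcm10, a factor that acts when the helicase becomes active (chr2:4994516-5017629, minus strand), was at 812, 768 and 802 normalized counts in KE and 1629, 1437 and 1609 in NT. The groups did not overlap, and it fell by 0.97 on the log2 scale (SE 0.072, limma adjusted p = 1.13e-06). GINS is a complex of 4 proteins, 1 from each of Gins1 to Gins4, that binds the MCM ring with CDC45. Gins1 (chr2:150747320-150773202, plus strand) read 232, 187 and 209.5 in KE and 464, 378 and 439.8 in NT and fell by 1.02 (SE 0.12, limma adjusted p = 4.02e-05). Gins4, shown because its change was the smallest of the 45, read 775, 779 and 711 in KE and 904, 924 and 921 in NT. Its groups were separate but close, with a log2 fold change of -0.28 (SE 0.072, limma adjusted p = 0.0074), and the 95% interval for Gins1 (-1.29 to -0.76) lay wholly below that for Gins4 (-0.44 to -0.12). Gins2 and Gins3 changed by -0.64 and -0.45, and Cdc45, which joins MCM and GINS in the active helicase, by -0.83.

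The 8 polymerase and primase genes all fell by more than 0.5 on the log2 scale (median -0.81). Pole, the catalytic subunit of the leading strand polymerase epsilon (chr5:110434172-110486287, plus strand), was measured at 1249, 1248 and 1498 normalized counts in KE and 2657, 2369.8 and 2800.4 in NT. Pole2, a further subunit of it (chr12:69248544-69274969, minus strand), was at 258, 281 and 204 in KE and 568, 519.5 and 533 in NT. Both were separate between groups, with log2 fold changes of -0.97 for Pole (SE 0.088, limma adjusted p = 4.96e-06) and -1.13 for Pole2 (SE 0.12, limma adjusted p = 2.09e-05). Pola1, the catalytic subunit of polymerase alpha, which extends the RNA primers (chrX:92348365-92675813, minus strand), read 1275, 1114 and 1176 in KE and 2400.1, 2193 and 2402 in NT and fell by 0.97 (SE 0.071, limma adjusted p = 9.75e-07). Its accessory subunit Pola2 and the primase genes Prim1 and Prim2 changed by -0.79, -0.82 and -0.61. For the lagging strand polymerase delta, the catalytic subunit Pold1 changed by -0.75 and Pold2 by -0.73.

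Pcna, the sliding clamp that holds polymerases on DNA (chr2:132091082-132095234, minus strand), had the highest level per kb of transcript in the clamp and clamp loader group (6 genes, median -0.69). It was at 6412, 6103 and 5696 normalized counts in KE and 10556, 9456 and 10600.3 in NT. No KE culture reached the NT range, and Pcna fell by 0.75 on the log2 scale (SE 0.066, limma adjusted p = 4.04e-06). The pseudogene Pcna-ps2, with which Pcna could share reads, held at most 0.86% of the Pcna value in any culture. RFC1 to RFC5 form the loader that opens the clamp. Rfc4 (chr16:22932519-22946794, minus strand) read 532, 530.0 and 500.4 in KE and 935, 896 and 912 in NT and fell by 0.81 (SE 0.074, limma adjusted p = 5.06e-06). Rfc5 (chr5:117515030-117527162, minus strand) read 553, 657 and 904 in KE and 1306, 1255 and 1203 in NT. Its KE cultures spread more than those of any other member (coefficient of variation 25.6%), with KE replicate 3 the closest to NT, and the log2 fold change was -0.86 (SE 0.14, limma adjusted p = 0.000473). Rfc1, the large subunit, changed least, by -0.41, and Rfc2 and Rfc3 by -0.56 and -0.63.

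In the group for Okazaki maturation and single-strand binding (5 genes, median -0.71), Lig1, the ligase that seals Okazaki fragments (chr7:13011239-13045350, plus strand), fell the most. It read 1898, 1999 and 1962 normalized counts in KE and 3584, 3944 and 4143 in NT, with groups well separated and a log2 fold change of -0.99 (SE 0.065, limma adjusted p = 4.4e-07). Fen1, the nuclease that trims the flaps between fragments (chr19:10176479-10182097, minus strand), read 1294, 1307 and 1222 in KE and 2056, 2086 and 2158 in NT and fell by 0.72 (SE 0.061, limma adjusted p = 2.9e-06). RPA coats single-stranded DNA in replication and also in repair. Its large subunit Rpa1 (chr11:75188992-75239455, minus strand) was at 4138, 4313 and 3999 in KE and 5268, 5632 and 5606 in NT. The groups were separate, but the log2 fold change of -0.41 (SE 0.056, limma adjusted p = 0.000125) was smaller in size than those of Rpa2 (-0.71) and Rpa3 (-0.59).

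The nucleotide synthesis genes (4 genes) had the lowest median of the 9 roles, at -0.96. Rrm2, the small subunit of ribonucleotide reductase that is made in S phase (chr12:24757811-24764145, plus strand), was measured at 6914, 7051 and 6900.3 normalized counts in KE and 11944, 11610.3 and 12692 in NT. The KE cultures differed little from one another and lay far under NT, and Rrm2 fell by 0.80 on the log2 scale (SE 0.054, limma adjusted p = 5.6e-07). Rrm1, the large subunit of the same enzyme, fell by 0.92. Tk1, the cytosolic thymidine kinase (chr11:117702770-117717042, minus strand), read 978, 1053 and 896 in KE and 2031, 2044 and 2121 in NT and fell by 1.08 (SE 0.072, limma adjusted p = 4.9e-07). Tyms, which makes thymidylate from deoxyuridylate (chr5:30263198-30278633, minus strand), read 983, 912 and 938 in KE and 1905, 1912 and 1829 in NT. Neither gene had a KE culture near NT, and Tyms fell by 0.99 (SE 0.063, limma adjusted p = 3.36e-07).

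Of the G1/S regulators (3 genes, median -0.57), both cyclin E genes fell. Ccne2, a partner of CDK2 at S-phase entry (chr4:11190303-11204947, plus strand) was at 553, 495 and 572 normalized counts in KE and 1269.7, 1236 and 1319 in NT. Its paralog Ccne1 (chr7:37797404-37808264, minus strand) was at 820.3, 842 and 729 in KE and 1136, 1155 and 1270.0 in NT. The groups were separate for both, and the log2 fold changes were -1.24 for Ccne2 (SE 0.079, limma adjusted p = 3.31e-07) and -0.57 for Ccne1 (SE 0.081, limma adjusted p = 0.000143). E2f1, an activator of S-phase genes (chr2:154401326-154411812, minus strand), read 843, 941 and 766 in KE and 1138, 1186 and 1191 in NT and fell by 0.47 (SE 0.083, limma adjusted p = 0.00075). Histone deposition was represented by Chaf1a and Chaf1b, subunits of the CAF-1 chaperone that places histones on new DNA. Chaf1a (chr17:56347303-56379289, plus strand) read 1155, 1286 and 1077 in KE and 2085, 2326 and 2352 in NT, and Chaf1b (chr16:93680768-93703003, plus strand) read 705, 849.7 and 714 in KE and 1272, 1192 and 1338 in NT. Neither overlapped between groups, and the log2 fold changes were -0.94 (SE 0.080, limma adjusted p = 2.99e-06) and -0.75 (SE 0.088, limma adjusted p = 3.8e-05).

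**Figure D2:**
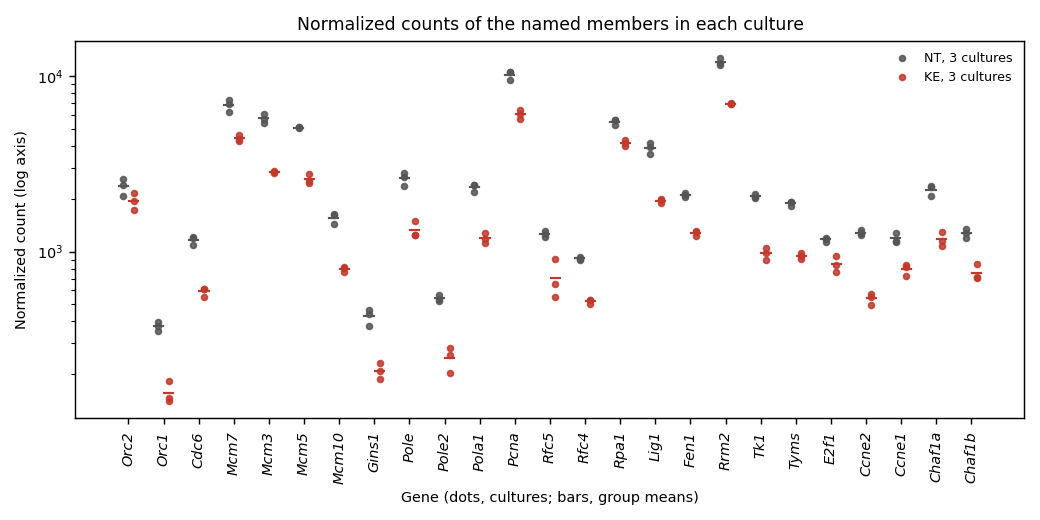
Normalized counts on a log axis for the members given in full above, except Gins4. Each culture has a dot and each group mean a bar (NT gray, KE red). The KE dots lie below the NT dots for every gene shown except Orc2, where they overlap, and the KE dots of Rfc5 are the most spread.

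Levels of different genes are given per kilobase of the canonical transcript. In NT, the highest of the 45 on this scale were Pcna (6722 normalized counts per kb), Rrm2 (4608), Rrm1 (2428) and Mcm7 (2299.8), and the lowest were Ccne2 (245), Gins3 (171) and Orc1 (112). In KE the same genes stood at 3999, 2653, 1281 and 1493 per kb and at 104, 124 and 46.6 per kb. Abundant and scarce members therefore both fell.

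RefSeq promoter windows of 300 bases (250 before to 50 after the start, GRCm38.p6) were found for 37 of the 45 genes, as 43 windows. None was found for Mcm4, Gins1, Gins2, Gins4, Prim2, Pole, Rfc2 and Ccne2. They were searched on both strands, with overlaps allowed, for 4 words of the type E2F proteins bind, TTTCGCGC, TTTCCCGC, TTTGGCGC and TTTGCCGC. A word was present in 13 of the 43 windows (30.2%), in 3.70% of the 14639 windows of tested genes and in 2.26% of all 32851 windows. The shorter word CCAAT, which NF-Y binds, was in 58.1% of the member windows and in 37.9% of those of tested genes. The 13 genes with an E2F-type word had a median log2 fold change of -0.97 (range -1.27 to -0.45). The 24 genes with a window but no word had a median of -0.77 (range -1.08 to -0.28). The ranges overlap widely, and the difference was not tested. The word counts describe letters in the windows and do not show binding. Only 4 exact words were searched in these windows, so a missing word does not show that E2F proteins do not bind the gene. Windows are printed for Orc1, Pole2 and Tk1, which had the largest falls among genes with a window, and for Mcm6, added after the search because it held the most matches, 3. The strand of the gene is shown 5′ to 3′, and capitals mark E2F-type words or their reverse complements. In Mcm6 the first run of capitals holds a pair of overlapping words on opposite strands, and Tk1 has none.
Orc1, chr4:108579204-108579503, plus strand: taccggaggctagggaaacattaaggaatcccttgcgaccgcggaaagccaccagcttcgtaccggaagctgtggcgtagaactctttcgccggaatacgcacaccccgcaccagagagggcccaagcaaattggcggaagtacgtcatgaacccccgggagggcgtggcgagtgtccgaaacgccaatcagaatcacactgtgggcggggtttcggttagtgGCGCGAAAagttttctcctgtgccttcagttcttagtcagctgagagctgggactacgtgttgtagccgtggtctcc
Pole2, chr12:69228141-69228440, minus strand: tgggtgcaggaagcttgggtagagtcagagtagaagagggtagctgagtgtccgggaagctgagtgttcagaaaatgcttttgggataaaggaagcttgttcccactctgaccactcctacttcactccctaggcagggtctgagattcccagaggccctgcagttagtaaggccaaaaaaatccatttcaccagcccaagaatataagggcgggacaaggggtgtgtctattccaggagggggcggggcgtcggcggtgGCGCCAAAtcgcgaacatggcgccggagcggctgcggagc
Mcm6, chr1:128359656-128359955, minus strand: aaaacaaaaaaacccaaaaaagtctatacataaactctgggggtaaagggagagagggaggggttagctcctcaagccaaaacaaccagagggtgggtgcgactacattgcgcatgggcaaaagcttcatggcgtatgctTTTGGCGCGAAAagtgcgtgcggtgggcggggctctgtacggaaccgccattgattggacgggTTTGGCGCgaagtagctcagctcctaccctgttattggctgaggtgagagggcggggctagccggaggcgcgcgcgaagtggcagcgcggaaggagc
Tk1, chr11:117825965-117826264, minus strand: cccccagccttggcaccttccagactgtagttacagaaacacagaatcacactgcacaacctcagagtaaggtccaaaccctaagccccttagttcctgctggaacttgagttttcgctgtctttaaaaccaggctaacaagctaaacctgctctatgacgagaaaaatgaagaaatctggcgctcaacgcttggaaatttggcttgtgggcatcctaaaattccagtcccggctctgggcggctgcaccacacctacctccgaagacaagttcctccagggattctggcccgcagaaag

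Some members have a partner gene with a related product, and ratios within a culture do not depend on how cultures were scaled. The 7 ratios computed were chosen after the values were seen and are descriptions. They are not divided by transcript length, so they compare the groups and not the levels of the paired genes. Rrm2 against Rrm2b, the p53-inducible small subunit of ribonucleotide reductase, gave 6.09, 7.48 and 7.25 in KE and 18.5, 17.0 and 19.1 in NT. Tk1 against Tk2, the mitochondrial thymidine kinase, gave 1.06, 1.14 and 1.02 in KE and 2.85, 3.02 and 3.21 in NT. In both pairs all NT ratios were above all KE ratios by a wide margin, and the partner itself was higher in KE (log2 fold change 0.60 for Rrm2b and 0.41 for Tk2, limma adjusted p = 0.000177 and 0.000702). Orc1 against Orc4, a subunit of the same complex, gave 0.11, 0.0972 and 0.102 in KE and 0.36, 0.315 and 0.32 in NT. Orc1 against Orc2 gave 0.0846, 0.0849 and 0.0725 in KE and 0.166, 0.17 and 0.144 in NT. Ccne2 against Ccne1 gave 0.674, 0.588 and 0.784 in KE and 1.12, 1.07 and 1.04 in NT. The KE ratios lay below all NT ratios. For polymerase delta, Pold3 against Pold4, neither among the 45, gave 1.63, 1.46 and 1.41 in KE and 3.19, 2.71 and 3.06 in NT. None of the 7 ratios overlapped between groups.

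**Figure D3:**
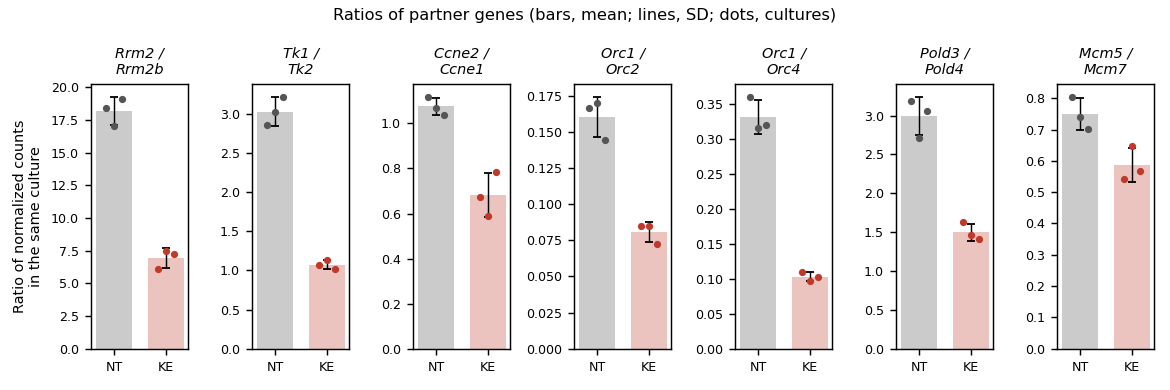
Ratio of normalized counts of partner genes in the same culture, with a dot per culture, bars at the group mean and lines for the SD (n = 3 per group). The Rrm2 to Rrm2b ratio was 6.94 ± 0.743 in KE and 18.2 ± 1.07 in NT, and the groups are separate in all 7 panels.

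The same pathways hold further genes, and 119 of them in 6 lists were read from the same fit: 90 were lower in KE, 8 were higher and 21 were not called, against 26.0% lower and 25.3% higher over all tested genes. Among the other licensing and firing factors, 9 of 14 fell and 1 rose (median -0.67). Wdhd1, which links polymerase alpha to the helicase, read 471, 518 and 489 normalized counts in KE and 1188, 1157 and 1247 in NT, a log2 fold change of -1.28 (limma adjusted p = 1.89e-07). The firing factors Ticrr (415, 464 and 420.2 in KE, 936, 937 and 959 in NT) and Recql4 (159, 140.2 and 156 in KE, 318, 328 and 333 in NT) changed by -1.12 and -1.10 (limma adjusted p = 7.1e-07 and 1.2e-05). None of these overlapped between groups. The gene that rose was Orc4, by 0.41 (limma adjusted p = 0.00107), and its fellow subunits Orc3 (0.15) and Orc5 (0.04) were not called. Of the 6 origin recognition complex genes, 3 were thus lower, 1 was higher and 2 were not called. Orc4 and the other genes named as higher were picked out after their values were seen.

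Of the fork, polymerase accessory and Okazaki factors, 12 of 15 fell and 1 rose (median -0.73). Dna2, a nuclease for long flaps, read 311, 293 and 297 normalized counts in KE and 721, 757 and 689 in NT (-1.26, limma adjusted p = 5.42e-07). Clspn, a fork and checkpoint adaptor, read 1146, 959 and 1151 in KE and 2318, 2155 and 2243 in NT (-1.05, limma adjusted p = 1.36e-06). Atad5, which unloads PCNA, read 572, 475 and 614 in KE and 1176, 1037 and 1143 in NT (-1.02, limma adjusted p = 1.02e-05). The groups were separate for these genes. Pold4, the smallest polymerase delta subunit, was the riser (0.34, limma adjusted p = 0.00445).

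In the wider list of nucleotide synthesis and salvage, 21 of 28 genes fell and 3 rose (median -0.42). Shmt1, a folate cycle enzyme, read 598, 583 and 644 normalized counts in KE and 1290.2, 1267 and 1366 in NT (-1.10, limma adjusted p = 4.79e-07). Ppat, which starts purine synthesis, read 819, 768 and 827 in KE and 1708, 1499 and 1590.0 in NT (-0.99, limma adjusted p = 9.93e-07). Dut, which clears dUTP, read 951, 809 and 918 in KE and 1725, 1744 and 1795 in NT (-0.98, limma adjusted p = 1.36e-06). No KE culture of these genes was in the NT range. The genes that rose were Rrm2b, Tk2 and Dguok, a mitochondrial deoxynucleoside kinase (0.47, limma adjusted p = 0.00318). RRM2B, TK2 and DGUOK are known to supply deoxynucleotides for mitochondrial DNA in nondividing cells.

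Of the E2F, RB and G1/S cyclin genes, 16 of 29 were lower, 3 higher and 10 not called (median -0.28). The E2F repressors E2f7 (314, 412 and 363 normalized counts in KE, 973, 822 and 1046 in NT) and E2f8 (522, 572 and 591 in KE, 1289, 1198 and 1341 in NT), themselves E2F targets, changed by -1.38 and -1.18 (limma adjusted p = 3.37e-06 and 5.22e-07). Ccna2, the S-phase cyclin A gene, read 2816, 2907 and 2799 in KE and 6990.4, 6400.2 and 6946 in NT (-1.25, limma adjusted p = 3.02e-08). These groups were separate. The genes that rose were Cdkn1a (0.60, limma adjusted p = 6.35e-06) and Cdkn2b (0.60, limma adjusted p = 8.08e-05), which encode the CDK inhibitors p21 and p15, and Ccnd3, a cyclin D gene (0.32, limma adjusted p = 0.00142). Cdkn1a read 11660.3, 12056 and 11924 in KE and 7668, 8328 and 7593 in NT. Of the other CDK inhibitor genes in the list, Cdkn2c (-0.51, limma adjusted p = 0.00021), Cdkn2d (-0.28, 0.00792) and Cdkn2a (-0.37, 0.0364) were called lower, and Cdkn1b (0.04) and Cdkn1c (0.24) were not called. The calls for Cdkn2a and for the cyclin D gene Ccnd1, lower at -0.21 (limma adjusted p = 0.0196), were lost when single cultures were left out, for Cdkn2a without KE replicate 3 or any 1 of the NT replicates and for Ccnd1 without NT replicate 3, and Ccnd2 (0.14) was not called. Of the RB family, Rbl1 fell (-0.64, limma adjusted p = 4.85e-05), and Rb1 (0.14) and Rbl2 (0.16) were not called.

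Of the S-phase chromatin and cohesion genes, 12 of 13 fell (median -0.56), led by the histone chaperone gene Nasp (2499, 2349.6 and 2308 normalized counts in KE, 5680.0, 5163 and 5379.7 in NT), Uhrf1, which maintains DNA methylation after replication (3721, 3801 and 3498 in KE, 7274, 7749.6 and 8001 in NT), and Hells, a chromatin remodeler (1235, 1135 and 1349 in KE, 2712, 2323 and 2732 in NT). Their log2 fold changes were -1.18, -1.06 and -1.06 (limma adjusted p = 6.86e-08, 1.29e-07 and 1.9e-06), and their groups were separate. All 20 G2/M genes fell (median -0.96), among them the proliferation marker gene Mki67, at 5466, 5369.9 and 5642 in KE and 17393, 16842 and 17290.1 in NT (-1.64, limma adjusted p = 4.34e-09). Cenpf, a kinetochore gene, read 2243, 2033 and 2384 in KE and 6008, 5559.9 and 5545 in NT. Ccnb1, a mitotic cyclin gene, read 3191, 3245 and 2901 in KE and 7048, 6764 and 6542 in NT. Cenpf and Ccnb1 changed by -1.36 and -1.13 (limma adjusted p = 6.79e-08 and 1.11e-07), and their groups were separate. The summed level of the 45 replication genes over that of the G2/M genes was 1.52, 1.49 and 1.53 in KE, against 1.21, 1.24 and 1.27 in NT. This ratio was higher in every KE culture than in any NT culture.

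**Figure D4:**
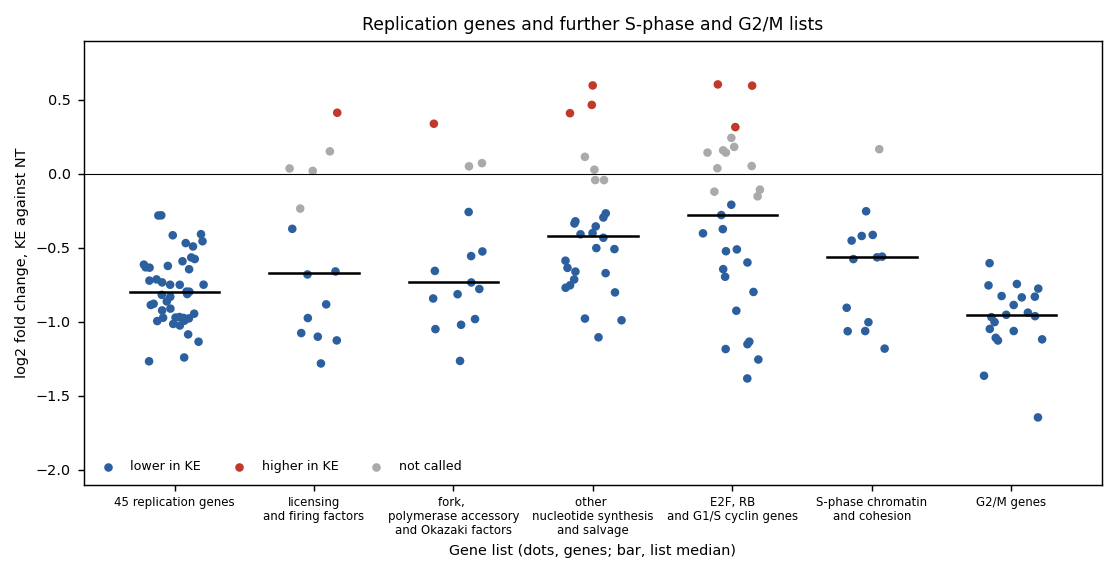
Log2 fold change, KE against NT, of the 45 replication genes and of the 119 genes of the 6 further lists, with a dot per gene colored by call and a line at each median. The 45 genes and the G2/M genes lie wholly below 0, with medians of -0.80 and -0.96, and the E2F, RB and G1/S list has the median nearest 0 (-0.28).

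The cultures were bulk samples, in which fewer cells of a type and less RNA per cell cannot be told apart, and cell type markers differed between the groups as well. The astrocyte markers were present in both groups, S100b only at 11.8 to 31.5 normalized counts, and summed to 150288 to 152751 in KE and 109516 to 114729 in NT, with 6 of 10 higher (5 under quantile normalization), among them Gfap (0.87, limma adjusted p = 3.82e-07). The others were Gja1 and Fgfr3, called lower, and 2 that were not called, and the call for Fgfr3 was lost without KE replicate 1, KE replicate 3, NT replicate 2 or NT replicate 3 (limma adjusted p = 0.147, 0.0645, 0.0576 and 0.142). All 12 microglia and macrophage markers were lower (median -3.34), and their sum was 3134 to 4943 in KE and 36808 to 44089 in NT. All 7 tested oligodendrocyte lineage markers of 8 were lower, with a sum of 27105 to 31876 in KE and 35920.5 to 36217 in NT, although 4 to 7 remained called when a culture was left out, 4 without KE replicate 1, KE replicate 3 or NT replicate 2, and 4 also in limma without the trend. The neuron markers summed to 5889.7 to 6149 in KE and 7502 to 8168 in NT, mostly Map2, which was lower (-0.51, limma adjusted p = 2.9e-05), while Tubb3 was higher (0.43, 0.00255). The endothelial and mural markers summed to 1089.9 to 1165 in KE and 1553 to 2325 in NT, with Acta2 lower (-1.34, limma adjusted p = 5.42e-05) and Rgs5 higher (0.79, 0.000914), and the endothelial genes Cldn5 and Cdh5 were at or near 0 in both groups. Pecam1 was also called lower (-0.86, limma adjusted p = 0.02), but not without NT replicate 1 or NT replicate 2 (0.063 and 0.0723) or with no filter on low genes (0.0567). The fibroblast markers summed to 1586 to 1764 in KE and 1467 to 1762 in NT, with Dcn lower (-0.65, limma adjusted p = 0.00993) and Col1a2 and Lum higher (0.37 and 0.39, 0.0367 and 0.02), calls that were lost in limma without the trend for both, without KE replicate 1, KE replicate 3 or NT replicate 1 for Col1a2 and without KE replicate 2, KE replicate 3, NT replicate 2 or NT replicate 3 for Lum. No marker of these lists was at 0 in all cultures. The part of these cells in the fall of the replication genes was not tested.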

How the data were processed

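RNA-Seq values of 3 KE and 3 NT astrocyte cultures were grouped by the sample labels. The authors deposited a normalized signal per gene and culture, Salmon gene counts divided by DESeq2 size factors. This scaling takes the bulk of genes as unchanged and hides sequencing depth. Per the labels, libraries were made with a stranded TruSeq mRNA kit. According to the study's methods, reads were trimmed with Trim Galore, and mouse reads were aligned with STAR to GRCm39. The submitters' processing notes list GRCh38 instead, but the gene identifiers are mouse. The methods mention batches without naming them, so none was modelled. Whole reads could not be recovered (only 74.7% to 77.6% of the low values came within 0.1 of whole multiples), so no count test was run and intervals come from the spread between cultures.

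The values, as log2(normalized count + 1), were tested in limma 3.58.1 (R 4.3.3). The model held the group alone, used a variance trend and covered the 15280 genes with a mean of at least 10. The study's DESeq2 test on counts could not be applied to normalized values. Tests were two-sided with Benjamini-Hochberg adjustment over all tested genes, and genes with an adjusted p-value under 0.05 were called. The code was tested on simulated data. Alternatives were other pseudocounts, filters, scalings and variance models, a replicate block, a fold cutoff, and leaving out each culture. Gene coordinates are from Gencode vM39 (GRCm39).

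The members and lists were chosen with earlier results of these data known. Genes given in full were, in each role, the one with the highest mean and the 2 with the largest change, and in each further list up to 3 called genes with the largest change. Gins4 and Cdkn1a were added after their values were seen. Other genes are given by log2 fold change.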

Additional observations from a re-analysis of the deposited data

How the results depend on the processing

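Under 14 alternatives (the fold cutoff is given separately), 44 of the 45 replication genes kept their direction and their call, and Orc2 was the exception, with the values given above for cultures left out and an adjusted p of 0.11 (limma without the trend, log2 fold change -0.28). The median log2 fold change of the 45 stayed between -0.82 and -0.77, and 44 to 45 were called lower when each culture was left out in turn. Among the 98 further genes called, 96 kept their call. Ccnd1 lost it without NT replicate 3 (limma adjusted p = 0.0823), and Cdkn2a lost it under quantile normalization (0.0538), without the trend (0.0959) and without KE replicate 3 (0.113), NT replicate 1 (0.0604), NT replicate 2 (0.108) or NT replicate 3 (0.0501).

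When a call also needed an absolute log2 fold change over 0.5, 2107 genes were lower and 1862 higher, 38 of the 45 remained lower, the licensing list and the fork list had 0 higher, and the nucleotide list had 13 lower and 1 higher. By the same cutoff, 3 astrocyte markers were higher and 0 lower, 4 oligodendrocyte lineage markers were lower, and 0 neuron and 0 fibroblast markers were higher. Under quantile normalization 1 S-phase chromatin gene was higher, and leaving out a culture gave 0 to 1 (1 without NT replicate 3). The cause was not tested. Among the cell type markers, further calls changed beside those given above for cultures left out. Slc1a3 was not called under quantile normalization (limma adjusted p = 0.209), which left 5 astrocyte markers higher, and Pecam1 was not called with no filter on low genes (0.0567). In limma without the trend, calls were lost for Fgfr3 (adjusted p = 0.0928), Cspg4 (0.0697), Sox10 (0.0857), Olig1 (0.0877), Col1a2 (0.0878) and Lum (0.0556), which left 4 oligodendrocyte lineage markers lower, and were gained for Snap25 (lower, 0.0454) and Syt1 (higher, 0.0238). Snap25 was also called lower without KE replicate 1 (limma adjusted p = 0.0401), and Pdgfrb without NT replicate 1 (0.0272). The median log2 fold change of all genes was 0.029 under quantile normalization and 0.0012 under scaling to the 75th percentile, against 0.0018.

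Cultures with the same number correlated weakly in their deviations from the group means (r = 0.0589, 0.0664 and 0.0651, each higher than with any other number). Every combination of unlike numbers gave a negative r, from -0.0499 to -0.0105. Whether same-numbered cultures were prepared together is not stated in the labels and was not settled here. The main model did not pair them. With a replicate block, all 45 genes were called lower, and over all genes 4079 were lower and 3967 higher, against 3974 and 3870 without it. Among the 45, the change of Orc2 is the least certain, since its call was lost in some alternatives. Gins4 had a change of similar small size but kept its call in all 14 alternatives. The small number of cultures, 3 per group, and the lack of an empty-plasmid control limit all 45 genes.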
